A study of Mus musculus with 6 samples.

Results

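RGS proteins, the regulators of G protein signalling, were followed through 8 genes, Rgs1, Rgs2, Rgs3, Rgs10, Rgs14, Rgs16, Rgs18 and Rgs19, out of 23453 gene rows of an RNA sequencing count table. The 8 were chosen by name with their expression differences in these libraries already known, so their levels and their differences between groups are a description and carry no test. The libraries came from splenocytes of wild-type OT1 mice on the C57BL/6 strain, whose transgenic T cell receptor recognises a peptide of ovalbumin. All cultures received the OVA peptide for 48 h. Some then had TCM for 8 h and the others FCM for 8 h. The labels expand neither name, call the FCM samples Vehicle, name the cells cytotoxic T lymphocytes, and give no age or pooling of animals. Each group had 3 libraries, and nothing in the labels says whether these were separate cultures or animals, so p-values measure only how far these libraries differ from each other, which may be technical spread.

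An RGS protein binds the active, GTP-loaded alpha subunit of a heterotrimeric G protein and speeds its hydrolysis of GTP, so that the signal of the receptor ends sooner. In lymphocytes the receptors concerned include those for chemokines, which act mainly through G proteins of the Gi class, and Rgs1 and Rgs16 are known as genes that T and B cells switch on when activated and that dampen migration towards chemokines. Rgs1, Rgs2, Rgs3, Rgs16 and Rgs18 belong to the R4 subfamily, most of whose members are short proteins of little more than the RGS domain, Rgs10 and Rgs14 to the R12 subfamily, and Rgs19 to the RZ subfamily.

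The deposited tables disagree on which group is which. All 6 columns of the authors' normalized table were constant multiples of a count column with the same replicate number but titled for the opposite group, and 0 matched the count column of their own title. Every direction here follows the titles of the count table and turns round under those of the normalized table. Library totals ran from 17166687 to 25789381 counts, and the replicate 1 libraries of both groups stood apart from the others on the second principal component, which held 8.32% of the variance against 86.4% on the first. The ribosomal precursor row Rn45s held 11.2% to 18.9% of the counts of a library, and these are part of the totals. Of 9 T cell marker rows all were detected, with a summed level of 1468 to 1774 CPM (edgeR's counts scaled to library size, with factors from TMM, its trimmed mean of M-values) in TCM libraries and 889 to 1057 CPM in Vehicle libraries, and 2 rose and 2 fell. Without Thy1, whose level differed most (923 CPM on average in TCM libraries, 336 CPM in Vehicle libraries), the others summed to 656 to 755 CPM in TCM libraries and 612 to 689 CPM in Vehicle libraries, which overlap. B cell markers summed to 1028 to 1213 CPM in TCM libraries and 1816 to 2182 CPM in Vehicle libraries, so the cultures held transcripts of other cells beside those of T cells. In a bulk sample, fewer cells of a type and less RNA per cell cannot be told apart.

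Rgs16 and Rgs2 lie on chromosome 1, as do Rgs1 and Rgs18, 4 of the 8 members. The 250 bases before the RefSeq transcription start of Rgs16 and of Rgs2 are shown in lower case. Rgs16 differed most of the members between groups, and the Rgs2 window held matches to the motif marked here. Capitals mark matches, on either strand, to the core of the cyclic AMP response element, TGACG. The Rgs16 window is chr1:153740103-153740352 on the plus strand and the Rgs2 window chr1:144004150-144004399 on the minus strand, both in GRCm38.p6.
Rgs16: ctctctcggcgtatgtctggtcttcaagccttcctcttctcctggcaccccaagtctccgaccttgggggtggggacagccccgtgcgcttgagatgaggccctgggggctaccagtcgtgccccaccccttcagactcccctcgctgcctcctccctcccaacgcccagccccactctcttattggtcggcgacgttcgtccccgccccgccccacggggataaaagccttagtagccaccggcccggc
Rgs2: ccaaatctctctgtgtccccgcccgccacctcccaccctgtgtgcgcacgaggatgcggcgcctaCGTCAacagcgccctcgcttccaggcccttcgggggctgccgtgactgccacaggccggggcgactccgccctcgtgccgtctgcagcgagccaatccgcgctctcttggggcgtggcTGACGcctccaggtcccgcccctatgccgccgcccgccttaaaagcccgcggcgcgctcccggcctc
The Rgs2 window held 2 matches, which begin 185 and 67 bases before the start, in opposite orientations. TGACG or its reverse complement was present in 17.7% of 32817 windows of the same length, each before a RefSeq transcription start. The Rgs16 window held no match to TGACG, to the AP-1 motif TGANTCA (6.75% of windows) or to the NFAT core GGAAA (55.6% of windows). RefSeq entries were matched for 5 members, and those of Rgs3, Rgs10 and Rgs19 were searched but are not shown. Windows of Rgs3 and Rgs19 held matches to GGAAA, so Rgs2 was not the only member with a motif match. The Rgs2 window held neither TGANTCA nor GGAAA, so no match overlapped another. The lack of a match says only that these letters were not in these bases.

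Rgs16 showed the widest gap of the members. It had 19.8, 20.4 and 20.2 CPM in TCM libraries 1 to 3, against 308, 356 and 332 CPM in Vehicle libraries 1 to 3. The groups were far apart and the TCM libraries lay close together, with a coefficient of variation of 1.61% in TCM libraries and 7.19% in Vehicle libraries. The difference was -4.04 ± 0.15 on the log2 scale (TCM minus Vehicle, ± SE, as for all differences here), a level 16.5-fold lower in TCM libraries, and -4.09 without both replicate 1 libraries. Among 12423 genes tested, 1.22% had a larger difference in either direction. The gene spans 153740349 to 153745468 on the plus strand of chromosome 1 (GENCODE M21, GRCm38), and 236 bases of its exons lie opposite exons of Gm28513 on the other strand, a gene outside those tested. Without a stated strand setting the reads of the pair cannot be told apart.

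Rgs1 had the opposite pattern. Its level was 320, 354 and 330 CPM in TCM libraries 1 to 3, against 154, 109 and 126 CPM in Vehicle libraries 1 to 3. All TCM libraries lay above all Vehicle libraries, and Vehicle replicate 1 was the highest of its group. The difference was 1.37 ± 0.16 on the log2 scale, a level 2.58-fold higher in TCM libraries, and 1.53 without both replicate 1 libraries. The spread was wider in Vehicle libraries, with a coefficient of variation of 5.18% in TCM libraries and 17.2% in Vehicle libraries.

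**Figure D1:**
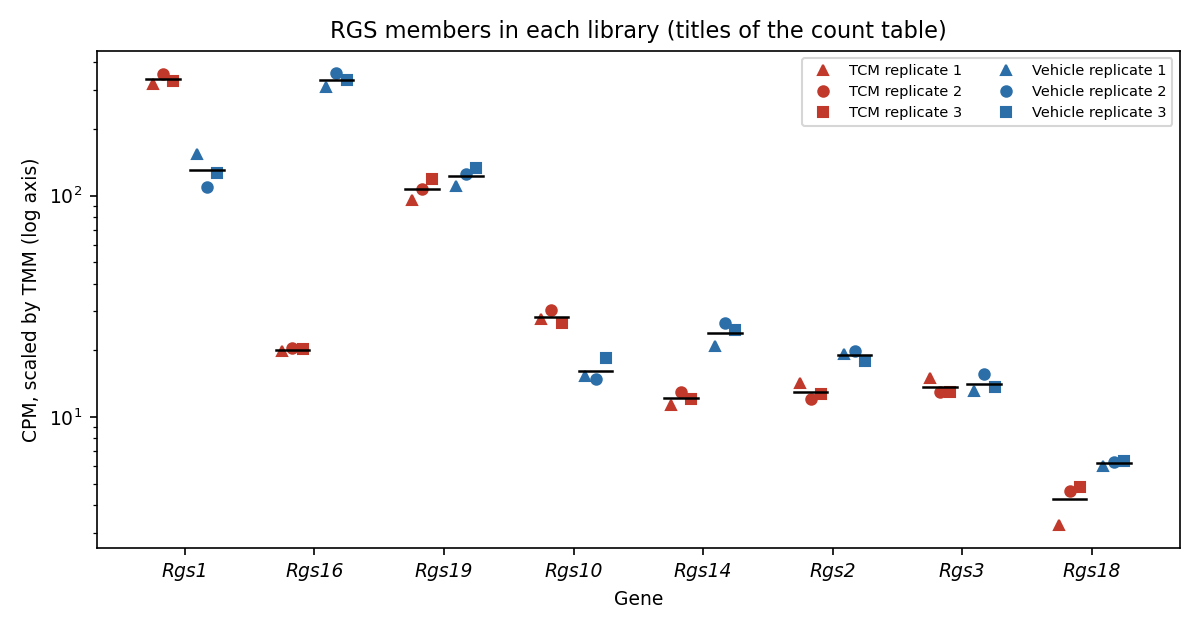
Level of each RGS member in CPM scaled by TMM (log axis) in the 3 TCM libraries (red) and the 3 Vehicle libraries (blue), titled as in the count table, with the replicate number as the symbol and the group mean as a bar. Rgs16 lies near 20 CPM in TCM libraries and between 308 and 356 CPM in Vehicle libraries, Rgs1 and Rgs10 are higher in TCM libraries, and the groups overlap for Rgs19 and Rgs3.

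Rgs2, an R4 protein that acts preferentially on alpha subunits of the Gq class, had 14.2, 12 and 12.8 CPM in TCM libraries 1 to 3, against 19.3, 19.9 and 17.8 CPM in Vehicle libraries 1 to 3. The groups did not overlap. The difference was -0.55 ± 0.12 (log2), or -0.62 without both replicate 1 libraries.

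Rgs18, an R4 gene best known in platelets and megakaryocytes, was the least abundant member before length is considered. Its counts were 61, 71 and 86 in TCM libraries 1 to 3, against 133, 167 and 164 in Vehicle libraries 1 to 3. As levels these were 3.25, 4.65 and 4.83 CPM in TCM libraries, against 6.03, 6.25 and 6.36 CPM in Vehicle libraries. The groups did not overlap, but TCM replicate 1 lay well below the other TCM libraries, and the coefficient of variation was 20.5% in TCM libraries and 2.65% in Vehicle libraries. The difference was -0.56 ± 0.17 (log2), -0.42 without both replicate 1 libraries and -0.39 without TCM replicate 1 alone. It no longer passed the threshold of the genome-wide fit without Vehicle replicate 2 (-0.55) or without Vehicle replicate 3 (-0.54).

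Cells that are not T cells also express Rgs2 and Rgs18, and genes listed as their markers differed in the same libraries. Of 8 platelet and megakaryocyte markers 4 had enough counts to be tested and 3 of these fell. The summed level was 15.2 to 21.9 CPM in TCM libraries and 44.6 to 53.2 CPM in Vehicle libraries. Without Itgb3, whose level differed most, the sum was 5.27 to 6.35 CPM in TCM libraries and 9.73 to 10.9 CPM in Vehicle libraries. Pf4, the tested marker that did not fall, was at -0.084 ± 0.26 (log2). Of 9 neutrophil marker rows 8 fell, with 1124 to 2173 CPM in TCM libraries and 7920 to 12467 CPM in Vehicle libraries. Of 10 monocyte and macrophage markers 7 fell and 1, Cd14, rose, with 160 to 165 CPM in TCM libraries and 543 to 647 CPM in Vehicle libraries. Most of that gap was Lyz2. Without Lyz2 the sum was 127 to 131 CPM in TCM libraries and 150 to 200 CPM in Vehicle libraries. No marker of these lists was at 0 in all libraries. Mast cell and basophil markers fell in 6 of 6 cases (20.6 to 29.5 CPM in TCM libraries, 81.2 to 112 CPM in Vehicle libraries), and erythroid markers in 4 of 4 tested (8.78 to 17.1 CPM in TCM libraries, 34.1 to 58.4 CPM in Vehicle libraries), with Hba-a2 at 0. NK cell markers fell in 2 of 3 tested (23.0 to 24.4 CPM in TCM libraries, 54.3 to 60.4 CPM in Vehicle libraries), with Klra4 at 0. Most of the NK cell sum was Eomes. Without Eomes it was 3.47 to 3.88 CPM in TCM libraries and 4.77 to 6.17 CPM in Vehicle libraries. Of 6 tested dendritic cell markers 3 fell and 1, Batf3, rose, with a sum of 42.1 to 51.5 CPM in TCM libraries and 34.8 to 37.9 CPM in Vehicle libraries and with Cd209a at 0. Without Batf3 the sum was 14.3 to 16.3 CPM in TCM libraries and 30.6 to 33.1 CPM in Vehicle libraries. T cells may also have made the Eomes and Batf3 transcripts, and a bulk sample cannot tell which cells did. Of the 8 B cell markers 5 fell. The part of these cells in the differences of Rgs2, Rgs18 and the other members was not tested.

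Rgs3, which acts on alpha subunits of the Gi and Gq classes and is made in several isoforms, differed little. It had 15.0, 13 and 12.9 CPM in TCM libraries 1 to 3, against 13.2, 15.6 and 13.6 CPM in Vehicle libraries 1 to 3. The groups overlapped, the difference was -0.051 ± 0.13 (log2), or -0.19 without both replicate 1 libraries, and it changed sign to 0.031 without Vehicle replicate 2.

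The R12 genes differed in opposite directions. Rgs10, a short RGS protein of immune cells and brain, had 27.8, 30.4 and 26.6 CPM in TCM libraries 1 to 3, against 15.3, 14.9 and 18.4 CPM in Vehicle libraries 1 to 3. Rgs14, which joins an RGS domain to Ras-binding domains and a GoLoco motif that holds inactive Gi alpha subunits, had 11.3, 13 and 12 CPM in TCM libraries 1 to 3, against 20.9, 26.6 and 24.6 CPM in Vehicle libraries 1 to 3. Neither gene's groups overlapped. The difference was 0.81 ± 0.13 (log2) for Rgs10, 1.75-fold higher in TCM libraries, and 0.77 without both replicate 1 libraries. For Rgs14 it was -0.99 ± 0.13, 1.99-fold lower in TCM libraries, and -1.05 without both replicate 1 libraries.

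Rgs19, also called GAIP, was first found as a partner of a Gi alpha subunit. It had 95.3, 107 and 119 CPM in TCM libraries 1 to 3, against 111, 125 and 133 CPM in Vehicle libraries 1 to 3. The groups overlapped, and replicate 1 was the lowest library of each group. At each of the 3 replicate numbers the TCM library was lower than the Vehicle library, but no label pairs libraries by number. The difference was -0.20 ± 0.14 (log2). It was -0.20 without both replicate 1 libraries and -0.42 with library totals in place of TMM. Under both of these settings it passed the threshold, which is given as a description and not as a test of Rgs19.

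As a count, 6 of 8 members passed an adjusted p of 0.05 in edgeR's quasi-likelihood test over all genes, 2 higher and 4 lower, and the same number had groups that did not overlap. Of all 12423 genes tested 58.8% passed, 28.8% higher and 30.0% lower, and 64.2% did not overlap between groups. Since the members were chosen with this contrast known, nothing is read from these shares. The median log2 difference was -0.37 over the 8 members and -0.018 over all genes tested. With library totals as scaling the median of all genes shifted by -0.21, all genes gave 2364 higher and 3965 lower calls against 3584 and 3726 with TMM, and no member's direction turned.

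**Figure D2:**
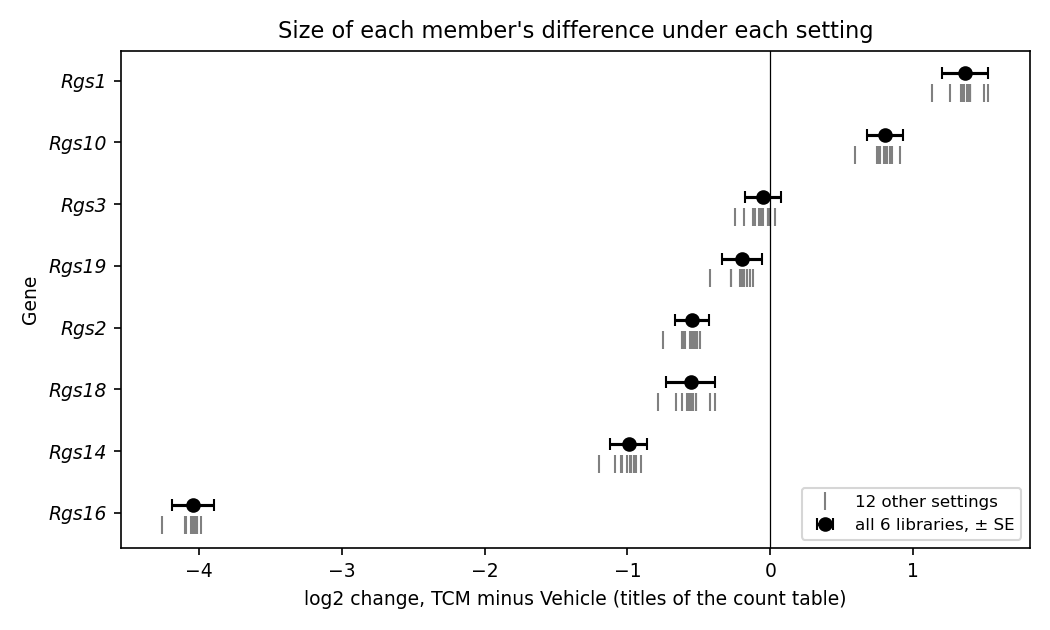
Difference of each RGS member on the log2 scale, TCM minus Vehicle by the titles of the count table, with all 6 libraries (black point, ± SE) and under 12 other settings of scaling, filter, tool, block or libraries left out (grey ticks). Rgs16 stays between -4.25 and -3.99 and Rgs1 between 1.14 and 1.53, while the ticks of Rgs3 cross 0.

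To compare genes with each other, levels were divided by exon length (CPM per kilobase, over the exons of protein-coding transcripts in GENCODE's basic set). In TCM libraries the order was led by Rgs1 at 87.1 ± 4.51 CPM per kilobase (SD, n = 3), then Rgs19 at 50.1 ± 5.60 and Rgs10 at 24.8 ± 1.72. Rgs16 came next at 8.62 ± 0.139 CPM per kilobase, followed by Rgs14 at 5.15 ± 0.362 and Rgs2 at 4.0 ± 0.338. Rgs18 at 2.09 ± 0.427 and Rgs3 at 1.74 ± 0.15 CPM per kilobase were last, and only these neighbours in the order had overlapping libraries.

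In Vehicle libraries Rgs16 led the length-scaled order at 142 ± 10.2 CPM per kilobase, ahead of Rgs19 at 57.4 ± 5.33 and Rgs1 at 33.8 ± 5.81 (SD, n = 3). Rgs10 followed at 14.2 ± 1.69 CPM per kilobase, then Rgs14 at 10.2 ± 1.22 and Rgs2 at 5.85 ± 0.333. Rgs18 at 3.06 ± 0.0811 and Rgs3 at 1.81 ± 0.168 CPM per kilobase were last here too, and no neighbours overlapped. The low place of Rgs3 depends on its long exon model of 7831 bases, against 3841 for Rgs1 and 1140 for Rgs10. All length-scaled orders, shares and folds rest on these GENCODE lengths, and the annotation behind the counts is not given. Without length, Vehicle libraries averaged 130 CPM for Rgs1 and 123 CPM for Rgs19, with overlapping libraries, so their order there depends on length.

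**Figure D3:**
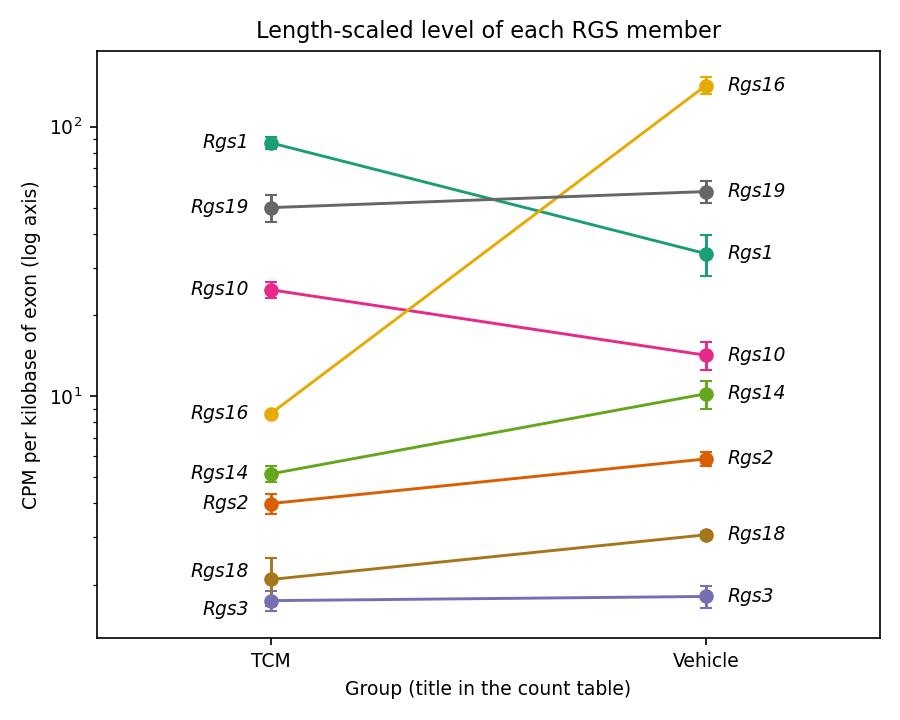
Length-scaled level of each RGS member in CPM per kilobase of exon (log axis), mean ± SD over 3 TCM libraries (left) and 3 Vehicle libraries (right), titled as in the count table. The line of Rgs16 crosses those of Rgs1, Rgs19 and Rgs10, with 8.62 in TCM libraries and 142 in Vehicle libraries.

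Rgs1 and Rgs16 thus exchanged the leading place among RGS transcripts. Per length, Rgs1 exceeded Rgs16 by 9.83-fold, 10.5-fold and 9.94-fold in TCM libraries 1 to 3, whereas Rgs16 exceeded Rgs1 by 3.29-fold, 5.34-fold and 4.32-fold in Vehicle libraries 1 to 3. Of the length-scaled sum over all 20 RGS rows, Rgs16 made up 4.55% ± 0.15 in TCM libraries and 52.6% ± 2.25 in Vehicle libraries (SD, n = 3). Rgs1 made up 45.9% ± 1.23 in TCM libraries and 12.6% ± 2.65 in Vehicle libraries. The share of Rgs19 was 26.4% ± 2.20 in TCM libraries and 21.2% ± 1.3 in Vehicle libraries. Summed over the 8 members without regard to length, the level was 533 ± 24.2 CPM in TCM libraries and 664 ± 14.9 CPM in Vehicle libraries.

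**Figure D4:**
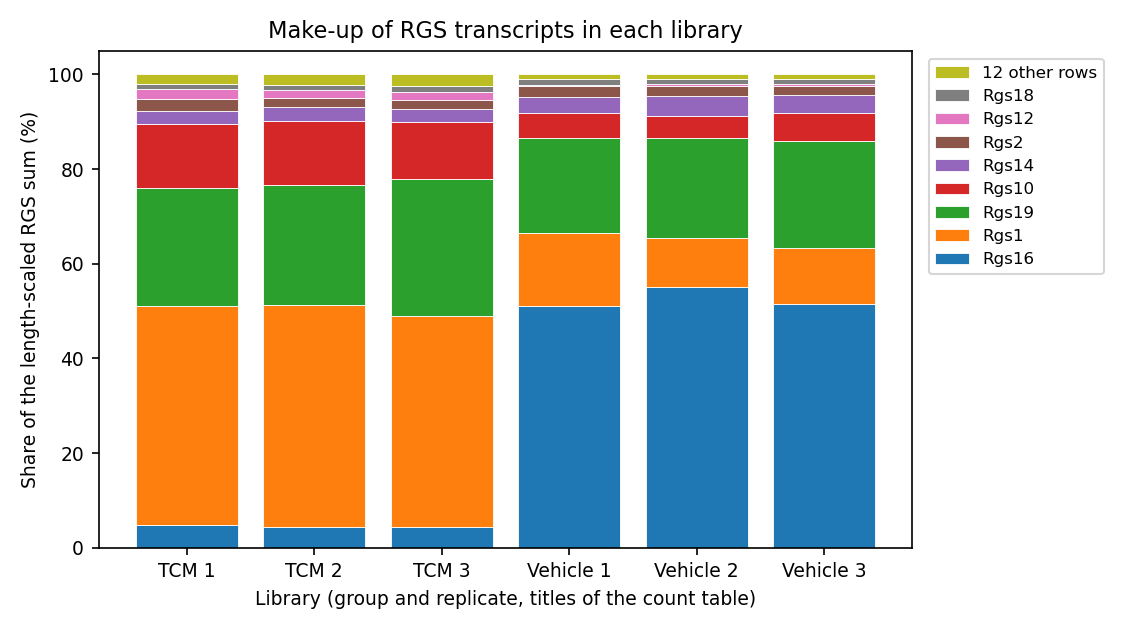
Share of each RGS gene, in percent, of the length-scaled sum (CPM per kilobase) over 20 RGS rows in each of the 3 TCM and 3 Vehicle libraries, titled as in the count table. Rgs16 (bottom, blue) fills 4.55% on average in TCM libraries and 52.6% in Vehicle libraries, and Rgs1 (orange) 45.9% in TCM libraries and 12.6% in Vehicle libraries.

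The chromosome 1 members did not differ as a block. In GENCODE M21 on GRCm38, Rgs2 (143999338 to 144004161), Rgs13 (144138654 to 144177372), Rgs1 (144242296 to 144249242), Rgs21 (144516648 to 144567667) and Rgs18 (144752683 to 144775435) lie in this order, all on the minus strand. No row of the count table was matched to Rgs21. Rgs1 was higher in TCM libraries, Rgs2 and Rgs18 were lower, and Rgs13, known from germinal centre B cells and mast cells, had 49 counts over the TCM libraries and 46 over the Vehicle libraries and did not pass the test (0.61 ± 0.37, log2; edgeR adjusted p = 0.175). No member overlapped another tested gene, and the longest run of bases shared between transcripts of any pair of members was 23.

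Of the RGS rows outside the 8 members, 4 (Rgs4, Rgs5, Rgs6 and Rgs17) had 0 counts in all libraries, and Rgs7, Rgs8, Rgs20 and Rgs22 had 1 to 10 counts over all libraries. Rgs8 had 0 counts in the TCM libraries, against 3, 6 and 1 in Vehicle libraries 1 to 3, too few to test. In the list of other RGS genes, which includes the binding proteins Rgs7bp and Rgs9bp, 5 of 14 rows were tested. Of these 2 rose and 0 fell in edgeR and in DESeq2, so that 40.0% passed, against 58.8% of all genes. There was 1 lower at an unadjusted p under 0.05, and 1 was called lower with library totals or with no filter. The median was 0.61 on the log2 scale. Rgs9bp, chosen here after its values were seen, was at -0.86 ± 0.34 (edgeR adjusted p = 0.0564) and Rgs9 at 0.25 ± 0.35 (adjusted p = 0.567).

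Rgs12, a large R12 relative of Rgs14, rose to 23.4 ± 2.96 CPM in TCM libraries, against 5.34 ± 0.333 CPM in Vehicle libraries (SD, n = 3; log2 2.13 ± 0.14, edgeR adjusted p = 3.79e-06). Of its exons 467 bases lie opposite those of Gm43791, a gene outside those tested. Rgs12 and Rgs14 lay on opposite sides of 0, as Rgs10 and Rgs14 did. Rgs11, of the R7 subfamily whose proteins are stabilised by the beta subunit Gnb5, rose to 3.63 ± 1.01 CPM in TCM libraries, against 0.661 ± 0.203 CPM in Vehicle libraries (log2 2.45 ± 0.30, edgeR adjusted p = 0.000175). Of its exons 138 bases lie opposite those of the tested gene Arhgdig. Gnb5 itself rose to 8.14 ± 1.52 CPM in TCM libraries, against 1.99 ± 0.630 CPM in Vehicle libraries (log2 2.01 ± 0.24, edgeR adjusted p = 0.00014).

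Of 10 tested alpha subunits, on which RGS proteins act, 4 rose and 3 fell (median 0.22, log2), which is 40.0% and 30.0% against 28.8% and 30.0% of all genes, but the number that fell was 0 without TCM replicate 3, and 1 without TCM replicate 2 or without Vehicle replicate 3. The largest rise was in Gnal, the alpha subunit of Golf, at 16.6 ± 0.629 CPM in TCM libraries and 0.883 ± 0.317 CPM in Vehicle libraries (SD, n = 3; log2 4.22 ± 0.21, edgeR adjusted p = 9.54e-07). Gna15, a Gq class subunit of blood cells, rose by 1.64 ± 0.14 on the log2 scale (edgeR adjusted p = 2.46e-05). Gnas, the alpha subunit of Gs, rose by 0.59 ± 0.15 (edgeR adjusted p = 0.00842), but with library totals as scaling it was at 0.39 and no longer passed. Gnai2, the main Gi subunit of lymphocytes and named here after its values were seen, had 990 ± 123 CPM in TCM libraries and 788 ± 113 CPM in Vehicle libraries and did not pass (0.33 ± 0.19, log2; edgeR adjusted p = 0.151).

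Of 12 tested beta and gamma subunits 3 rose and 2 fell (median 0.32, log2), so that 41.7% passed, against 58.8% of all genes. With the replicate number as a block 8 rose, as they did without both replicate 1 libraries, and 7 rose without TCM replicate 1. Gng4 fell by 1.34 ± 0.19 and Gng11 by 1.40 ± 0.34 on the log2 scale (edgeR adjusted p = 0.000382 and 0.00726), both at under 5 CPM in every library.

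**Figure D5:**
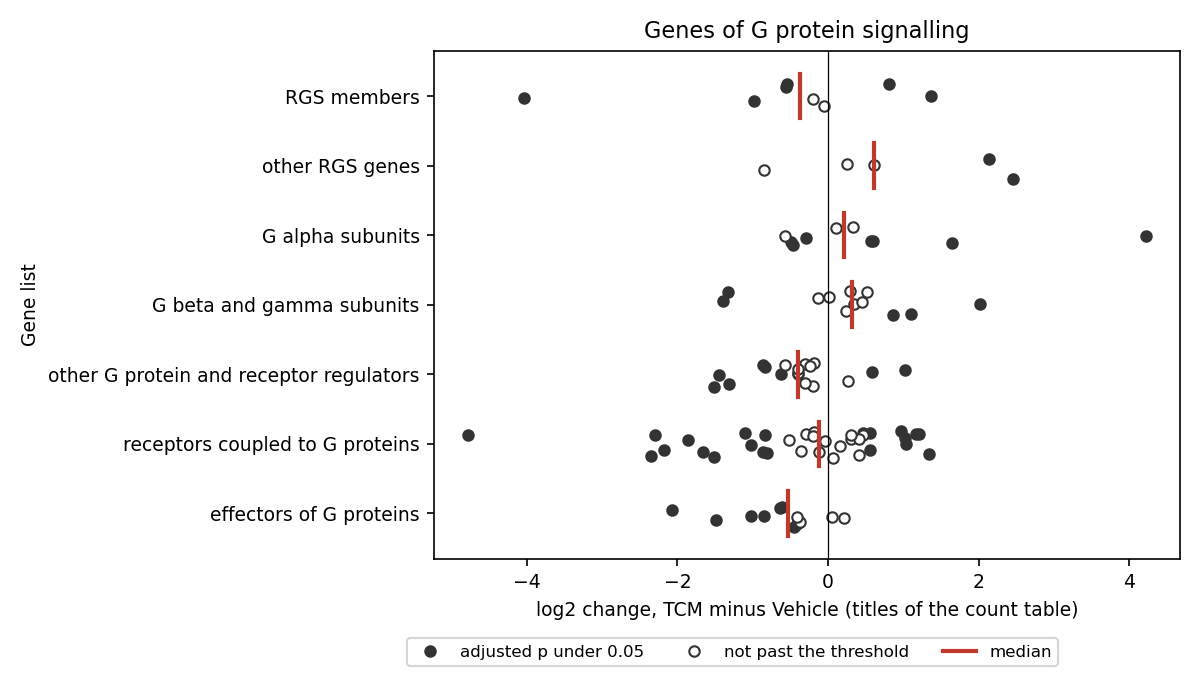
Difference of each tested gene on the log2 scale, TCM minus Vehicle by the titles of the count table, for the 8 RGS members and 6 lists of genes of G protein signalling. Filled points passed an adjusted p of 0.05 in edgeR, open points did not, and the red bar is the median of the list, which is -0.37 for the members and -0.54 for the effectors.

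Of 18 tested other regulators of receptors and G proteins 2 rose and 7 fell (median -0.40, log2), which is 11.1% and 38.9% against 28.8% and 30.0% of all genes. With the replicate block 11 fell, and without both replicate 1 libraries 13 fell. Adrbk2, which encodes the receptor kinase GRK3, fell to 4.54 ± 0.710 CPM in TCM libraries, against 13 ± 1.37 CPM in Vehicle libraries (SD, n = 3; log2 -1.51 ± 0.16, edgeR adjusted p = 6.15e-05). Arrb1, the gene of beta-arrestin 1, rose by 1.02 ± 0.12 on the log2 scale (edgeR adjusted p = 0.000113).

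Among 35 tested receptors coupled to G proteins 9 rose and 12 fell (median -0.12, log2), so that 60.0% passed, close to the 58.8% of all genes. With the replicate block 14 rose and 15 fell. Without both replicate 1 libraries 15 rose and 15 fell. The smallest p-values belonged to falls. Cxcr2, a chemokine receptor of neutrophils, fell to 0.472 ± 0.375 CPM in TCM libraries, against 13.3 ± 0.994 CPM in Vehicle libraries (SD, n = 3; log2 -4.78 ± 0.31, edgeR adjusted p = 4.18e-06), in the libraries in which 8 of 9 neutrophil marker rows fell. The part of those cells in it was not tested. Cnr2, a cannabinoid receptor of immune cells, and Ccr6, a chemokine receptor, fell by 1.66 ± 0.15 and 1.86 ± 0.17 on the log2 scale (edgeR adjusted p = 2.83e-05 and 2.88e-05).

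Of 12 tested effectors 8 fell and 0 rose in edgeR and in DESeq2, with 0 higher also at an unadjusted p under 0.05 (median -0.54, log2), where 30.0% of all genes fell. Without TCM replicate 2 the number that fell was 5. Pik3r6, an adaptor of the phosphoinositide kinase that G protein beta and gamma subunits switch on, fell to 3.37 ± 0.375 CPM in TCM libraries, against 14.2 ± 0.137 CPM in Vehicle libraries (SD, n = 3; log2 -2.07 ± 0.13, edgeR adjusted p = 3.99e-06). Pik3cg, its catalytic subunit, and Plcb2, a phospholipase C, fell by 0.86 ± 0.12 and 1.02 ± 0.13 (edgeR adjusted p = 0.000286 and 0.000204). Neutrophil and monocyte marker rows fell in the same libraries, 8 of 9 and 7 of 10, and their part in these falls was not tested.

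For each member the gene with the most similar profile was sought among tested genes whose average abundance in edgeR was 3 or more in log2 CPM. A gene can pass this limit through the group where it is high. Symbols in the form of dates were left out. The measure was the root mean square difference of log2 CPM over the 6 libraries, after centring each gene on its own mean. Il9r, the gene of the interleukin 9 receptor, was nearest to Rgs16 at 0.114, with 2.71, 2.95 and 2.36 CPM in TCM libraries 1 to 3, against 47.6, 47.3 and 46.6 CPM in Vehicle libraries 1 to 3. Agpat5 was nearest to Rgs1 at 0.0304 and Fam120b to Rgs2 at 0.0227. The nearest genes to Rgs3, Rgs10, Rgs14, Rgs18 and Rgs19 were Mrps18a, Plp2, Tapbp, Fam108b and Fbxo31, at 0.0433 to 0.0666. With 6 libraries in 2 groups, this likeness mostly reflects a group difference of the same size, and it is given as a description.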

How the data were processed

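RNA of 6 splenocyte libraries was analysed. The authors deposited counts of exon reads for each gene symbol as whole numbers without normalization, and a normalized table whose values, a signal, are those counts divided by 1 size factor per library. STAR 2.7.2d, DESeq2 1.28.1 and mm10 are named, per the submitters' processing notes, without roles; which annotation, counting tool and strand setting were used is not given in the sources used here. After leaving out 92 spike-in rows with 0 counts, low genes were removed (filterByExpr), libraries were scaled by TMM, and edgeR 4.0.16 under R 4.3.3 gave the quasi-likelihood test, with Benjamini-Hochberg adjustment over 12423 genes and a threshold of 0.05. The procedure was run on simulated counts with far fewer changed genes, equal rises and falls and independent replicates. That run cannot show how well errors are controlled in these data. The SE is the log2 difference divided by the square root of F. After scaling, 1 count was worth 0.0374 to 0.0655 CPM, which limits genes with few counts. No pair of replicates was alike within counting error (5.08 to 110 for chi-square divided by genes). Expected counts came from library totals without TMM, so differences that TMM removes are part of these values.

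The members and the lists were chosen with earlier results of these data known. All 8 members are named, and in each of 6 pathway lists the up to 3 genes with the smallest p past the threshold. One of these genes is not reported here. Ric8a was read from its older symbol Ric8. Deviations from the group means correlated between same-numbered libraries of the groups (r = 0.60, 0.15 and 0.36 for numbers 1 to 3), over 0.1 for each number, so the block was used beside results as for paired samples. The pairing has no label behind it and rests on number 1: TCM 2 with Vehicle 3 gave 0.27 and TCM 3 with Vehicle 2 gave 0.42, each above the value of that TCM library with its own number. Alternatives were library totals, DESeq2's size factors, DESeq2 1.42.0, no filter, libraries left out, the replicate block and the normalized table's titles. Dividing that table's values by the smallest value above 0 in each library gave whole reads for 100% of values above 0 (tolerance 0.1 reads), and edgeR on those reads called 3726 genes higher and 3584 lower.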

Additional observations from a re-analysis of the deposited data

How the results depend on the processing

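The normalized table holds multiples of the same counts under opposite titles, so a change of sign was fixed in advance and checks nothing. With the titles of the normalized table every difference turned round, to -1.37 for Rgs1, 0.55 for Rgs2, 0.051 for Rgs3, -0.81 for Rgs10, 0.99 for Rgs14, 4.04 for Rgs16, 0.56 for Rgs18 and 0.20 for Rgs19 on the log2 scale. The named pathway genes then stood at -2.13 (Rgs12), -2.45 (Rgs11), -4.22 (Gnal), -1.64 (Gna15), -0.59 (Gnas), -2.01 (Gnb5), 1.34 (Gng4), 1.40 (Gng11), 1.51 (Adrbk2), -1.02 (Arrb1), 4.78 (Cxcr2), 1.66 (Cnr2), 1.86 (Ccr6), 2.07 (Pik3r6), 1.02 (Plcb2) and 0.86 (Pik3cg). Counts exchanged sides, to 4 higher and 2 lower members, 0 and 2 other RGS genes, 7 and 2 other regulators, and 8 and 0 effectors.

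With library totals 2364 of all genes were higher, 1 other RGS gene was lower, 2 alpha subunits and 1 other regulator were higher, and Rgs19 passed at -0.42. With no filter 1 other RGS gene was lower, and 5 beta and gamma subunits and 1 effector were higher. The replicate block gave 8 beta and gamma subunits and 14 receptors higher and 11 other regulators lower, and it changed no member's call. Without both replicate 1 libraries these counts were 8, 15 and 13, and Rgs19 passed at -0.20. With 1 library left out, the members' differences ran from 1.26 to 1.5 (Rgs1), -0.61 to -0.49 (Rgs2), -0.12 to 0.031 (Rgs3), 0.75 to 0.91 (Rgs10), -1.08 to -0.91 (Rgs14), -4.10 to -3.99 (Rgs16), -0.66 to -0.39 (Rgs18) and -0.27 to -0.12 (Rgs19). Alpha subunits that fell then numbered 0 to 2, beta and gamma subunits that rose 2 to 7, and effectors that fell 5 to 9. The cause of these moves was not tested. DESeq2 and its size factors moved no call of a member or named gene. Rgs18, at 61 to 167 counts, is the member most limited by depth.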
